A study of Homo sapiens with 8 samples.

Results

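Transcripts of the nuclear-encoded subunits of the oxidative phosphorylation system were followed by RNA-seq in RKO and SW480, a pair of cell lines from human colorectal cancer. The genes were chosen by symbol, as those whose names carry the prefixes of the subunits of complexes I to V, with antisense and pseudogene symbols left out. This gave 85 of the 16829 genes in the count table: 38 of complex I, 4 of complex II, 9 of complex III, 15 of complex IV and 19 of complex V. Of these, 82 had enough counts to be tested. ATP5MGL, COX7A1 and COX8C, which held between 0 and 6 counts in any library, were not. Complexes were assigned by prefix, so NDUFA4, a subunit of complex IV that RefSeq lists as COXFA4, is counted here with complex I, and COX7A2L, a supercomplex factor, and ATP5IF1, the inhibitor of ATP synthase, are counted with complexes IV and V.

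The series compared RKO cells labelled as normal control for CYP1B1 with RKO cells overexpressing CYP1B1, and SW480 cells carrying a hairpin against CYP1B1 (shCYP1B1) with SW480 cells given a hairpin of no target (shNT), with 2 libraries in each of the 4 groups. According to the labels all cells were grown in DMEM with serum and treated with a lentivirus, and 1 hairpin was used, so effects off the target cannot be told apart from those of CYP1B1. Nothing in the labels tells whether the 2 libraries of a group are separate cultures, and the p-values may therefore rest on technical spread alone. The libraries held 31550173 to 34921085 counts. CYP1B1, a cytochrome P450 that oxidises steroids and polycyclic hydrocarbons, stood at 0.134 and 0.139 FPKM in the RKO control libraries and at 85.0 and 100.7 FPKM in the overexpression libraries, and at 0.274 and 0.421 FPKM with shNT and 0.0679 and 0.0556 FPKM with shCYP1B1. FPKM is a count divided by gene length and library total, and allows levels of different genes to be set side by side. The 9 colorectal epithelial marker genes summed to 154 to 177 FPKM in the RKO libraries and to 3019 to 3283 FPKM in the SW480 libraries, so as a sum they were lower in RKO than in SW480, and the 6 stromal markers summed to at most 4.83 FPKM in any library.

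Oxidative phosphorylation couples the oxidation of NADH and succinate to the making of ATP in the inner mitochondrial membrane. Complexes I and II pass electrons to ubiquinone, complex III passes them on to cytochrome c, complex IV reduces oxygen, and complex V, the ATP synthase, uses the proton gradient that complexes I, III and IV build. Most subunits are encoded in the nucleus and imported, and a few hydrophobic core subunits are encoded by mitochondrial DNA. The table used here held 0 genes with the mitochondrial prefix, so those subunits were not analysed here, and neither were COX4I2 and COX6A2.

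In control cells the subunit transcripts were abundant. The median over the 82 tested genes was 68.0 FPKM in the RKO control group and 61.8 FPKM in the shNT group, beside 6.64 and 6.28 FPKM for all tested genes. Over all 85 genes, complex V had the highest median of the 5 complexes in both control groups, at 101.2 FPKM in RKO and 91.2 FPKM in SW480. The complex medians take in the untested ATP5MGL, COX7A1 and COX8C, at or near 0, and a ranking over tested genes alone is not given. The highest single gene was NDUFB9, an accessory subunit of complex I, in RKO control cells (455 and 445 FPKM), and ATP5F1B, the catalytic beta subunit of ATP synthase, in shNT cells (588 and 581 FPKM). All 85 genes together took 0.887% ± 0.0123 of all counts in RKO control and 0.882% ± 0.0139 in shNT cells (SD, n = 2), so the lines held nearly equal summed shares.

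The composition behind these sums differed between the lines. Of the 82 tested genes, 37 were higher and 27 lower in SW480 shNT than in RKO control cells by edgeR's quasi-likelihood test with Benjamini-Hochberg adjustment, where 41.2% of all tested genes were higher and 35.6% lower, so the share called was close to that of genes in general. Cell line, vector and any batch cannot be told apart in this comparison. NDUFB8, an accessory subunit of complex I, read 126 and 116 FPKM in RKO control and 37.5 and 38.2 FPKM in shNT, and was the gene most in favour of RKO (log2 fold change -1.63, SE 0.08, adjusted p = 5.09e-09). ATP5F1A, the alpha subunit of ATP synthase, was also higher in RKO, at 103 and 99.6 FPKM against 41.4 and 40.5 FPKM. Its partner in the catalytic head, ATP5F1B, went the other way, at 402 and 408 FPKM in RKO control against 588 and 581 FPKM in shNT. Genes of 1 enzyme thus stood in different proportions in the lines, with no overlap between the libraries of the groups. NDUFB9 (-1.41) and UQCRB (-1.23), a small subunit of complex III, were the other genes most in favour of RKO, and ATP5F1E (1.40), SDHD (1.30) and NDUFS6 (1.27) those most in favour of SW480 after COX7B2, which was at 0 in RKO.

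COX7B2, a paralog of the complex IV subunit COX7B, had 0 counts in all 4 RKO libraries, which allows up to 3 counts per library. It had 30 and 29 counts in shNT and 17 and 23 in shCYP1B1 libraries. Against a floor of 3 counts per library, it was at least 9.14-fold higher in shNT than in RKO control cells. Even in SW480 it made up only 1.36% ± 0.0528 of the summed FPKM of COX7B and COX7B2 with shNT (SD, n = 2).

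With CYP1B1 overexpression in RKO, the calls among the subunit genes were rises. Of 82 tested genes, 44 rose and 0 fell by edgeR's quasi-likelihood test, where 13.8% of all tested genes rose and 13.8% fell. At an unadjusted p under 0.05, 54 rose and 0 fell, and DESeq2 called 45 and 0. Shares of all tested genes at other thresholds or in other fits, those with a library left out included, are not given here or below. Such counts therefore cannot be set against genes in general. The median log2 fold change was 0.26, beside 0 for all tested genes. The 44 log2 fold changes lay between 0.23 and 0.98, and the 38 genes that did not pass lay between -0.45 and 0.42. Summed over all 85 genes, FPKM was 8091 and 7856 in the control libraries and 9945 and 9286 in the overexpression libraries, and the share of counts was 0.887% ± 0.0123 and 1.05% ± 0.0420 (SD, n = 2). In bulk RNA these values cannot tell more subunit RNA per cell from a change in the mix of cells.

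**Figure D1:**
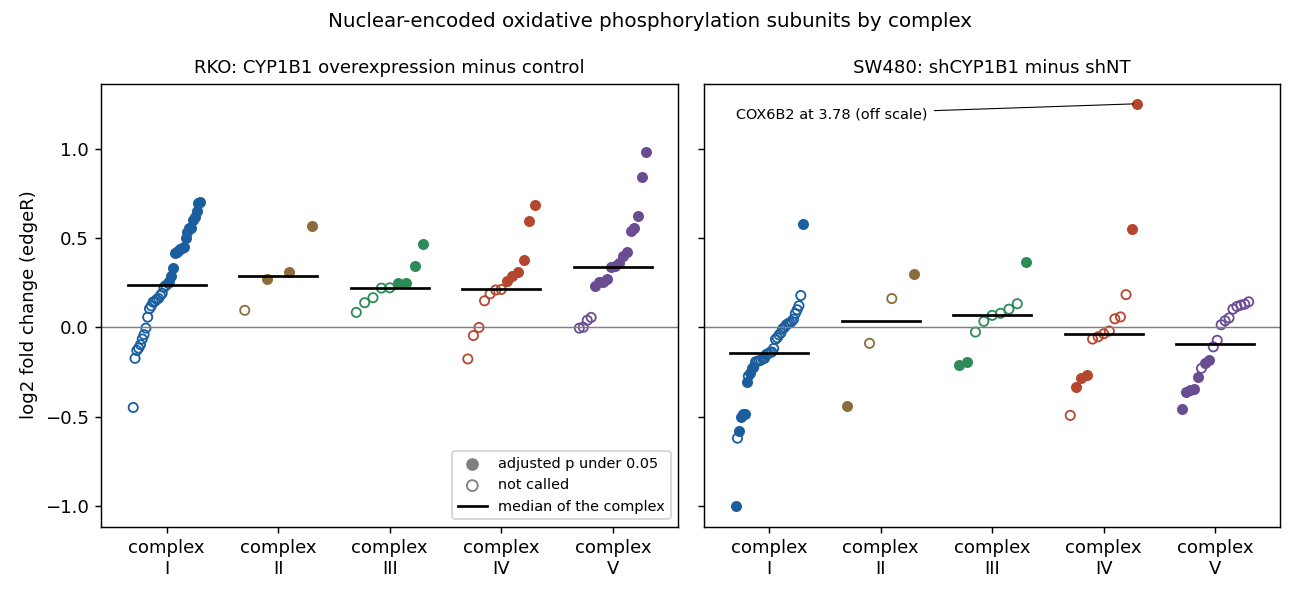
Log2 fold change of each tested subunit gene by complex, for RKO overexpression minus control (left) and SW480 shCYP1B1 minus shNT (right), with filled points for adjusted p under 0.05 and a bar at the median of the complex. In RKO all filled points lie above 0 in each complex, and in SW480 filled points lie on both sides, with COX6B2 drawn off scale.

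Of the 4 pairs of replicates, the overexpression pair was the least alike, with 178 of 11272 genes apart by over 2-fold beside 66 to 98 in the other groups. Relative to the mean of the RKO controls, the median of the subunit genes was 0.31 in overexpression replicate 1, with 78 of 82 genes above 0, and 0.22 in replicate 2, with 66 of 82. Both libraries lay above the controls, which stood at 0.03 and -0.03. Leaving out each of the 8 libraries in turn, 25 of the 44 calls were kept in every fit. Without control replicate 2, 28 genes were called higher, and without overexpression replicate 1, 4 were called lower.

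Gene length moved with the RKO result. The length implied by count and FPKM had a median of 1180.5 bp for the tested subunit genes and 3949 bp for all tested genes. Among all tested genes under 1 kb, 31.4% rose and 1.24% fell in RKO, with a median log2 fold change of 0.23, and among those of 4 kb and over 8.23% rose and 20.1% fell, with a median of -0.09. Among the subunit genes, 20 of 35 under 1 kb rose (57.1%), 15 of 26 from 1 to 2 kb (57.7%), 5 of 12 from 2 to 4 kb (41.7%) and 4 of 9 of 4 kb and over (44.4%). When the trend of each library with length was removed, an alternative chosen after seeing the data, 21 subunit genes were higher and 11 lower, with a median of 0.06, so both the count of rises and the count of falls depend on that choice. Of the 44 calls, 20 were kept with the length trend removed, and 18 were kept both there and with each library left out. The part of length in the result was not otherwise tested. Shares of all tested genes called with the length trend removed are not given here or below. Counts from that fit therefore cannot be set against genes in general. In SW480, 23.6% of all tested genes under 1 kb rose and 16.3% fell, and 24.1% and 29.2% did among those of 4 kb and over.

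**Figure D2:**
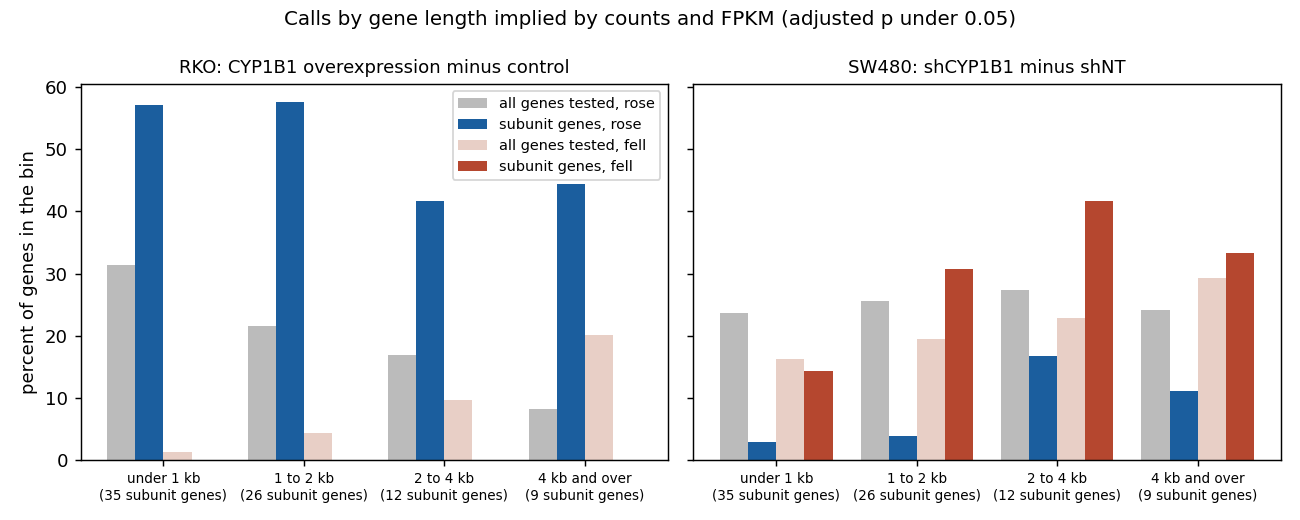
Percent of genes called in 4 bins of the gene length implied by counts and FPKM, for all tested genes (pale bars) and the subunit genes (dark bars), in RKO (left) and SW480 (right). In RKO the share of all genes that rose goes down from 31.4% under 1 kb to 8.23% at 4 kb and over, and the subunit bars stand above it in each bin.

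Within ATP synthase, 14 of 18 tested genes rose in RKO and 0 fell, with a median of 0.34. With the length trend removed, 6 were higher and 2 lower, with a median of 0.09. By part of the enzyme, 4 of 5 genes of the catalytic head with its central stalk rose, and 4 of 4 of the peripheral stalk. Of the membrane part and its associated small proteins, 6 of 8 rose. The peripheral stalk genes ATP5PB, ATP5PD, ATP5PF and ATP5PO each lost the call with the length trend removed, at 0.19, -0.01, 0.08 and -0.03. All but ATP5PD also lost it in at least 1 fit with a library left out. The 6 genes higher with the length trend removed were of the other parts. The 2 largest rises of all 82 genes were in the family that encodes the c subunit. ATP5MC1, ATP5MC2 and ATP5MC3 encode the same mature proteolipid of the rotor ring with different import sequences. ATP5MC1 (chromosome 17, 48892765 to 48895871, plus strand, GENCODE release 29 on GRCh38) read 69.2 and 65.1 FPKM in the controls and 122 and 141 FPKM with overexpression, and rose by 0.98 (SE 0.09, adjusted p = 7.68e-05), a 1.98-fold change, which was 0.62 on the log2 scale with the length trend removed. ATP5MC3 (chromosome 2, 175176258 to 175184607, minus strand) read 34.9 and 36.0 FPKM and then 59.5 and 65.8 FPKM, and rose by 0.84 (SE 0.07, adjusted p = 5.58e-05). For both genes each overexpression library was above each control library.

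ATP5MC2 did not pass the test, with 73.2 and 71.5 FPKM in the controls and 75.1 and 71.8 FPKM with overexpression (log2 fold change 0.04, SE 0.07, adjusted p = 0.711). Its share of the summed FPKM of the family was 41.3% ± 0.114 in the controls and 27.6% ± 2.48 with overexpression, while that of ATP5MC1 was 38.4% ± 0.930 and 49.0% ± 2.18 (SD, n = 2). The family summed to 177 and 173 FPKM in the controls and to 256 and 278 FPKM with overexpression. The largest c subunit gene by FPKM was thus ATP5MC2 in the control libraries and ATP5MC1 in the overexpression libraries, with no overlap in either share.

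Among the other ATP synthase genes, ATP5F1B rose by 0.34 (SE 0.06), from 402 and 408 to 509 and 501 FPKM, and its partner ATP5F1A by 0.26 (SE 0.06). The ATP5F1A call was lost without control replicate 2 (adjusted p = 0.0866), and the ATP5F1B value was 0.20 with the length trend removed. ATP5F1E, the epsilon subunit of the central stalk, rose by 0.56, and ATP5MJ, a small protein bound to the membrane part, by 0.62, or 0.36 with the length trend removed. ATP5IF1, which inhibits the hydrolysis of ATP by the enzyme, read 186 and 180 FPKM in the controls and 191 and 171 FPKM with overexpression and did not pass the test (log2 fold change 0.00, SE 0.08). With the length trend removed it was called lower, at -0.37.

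**Figure D3:**
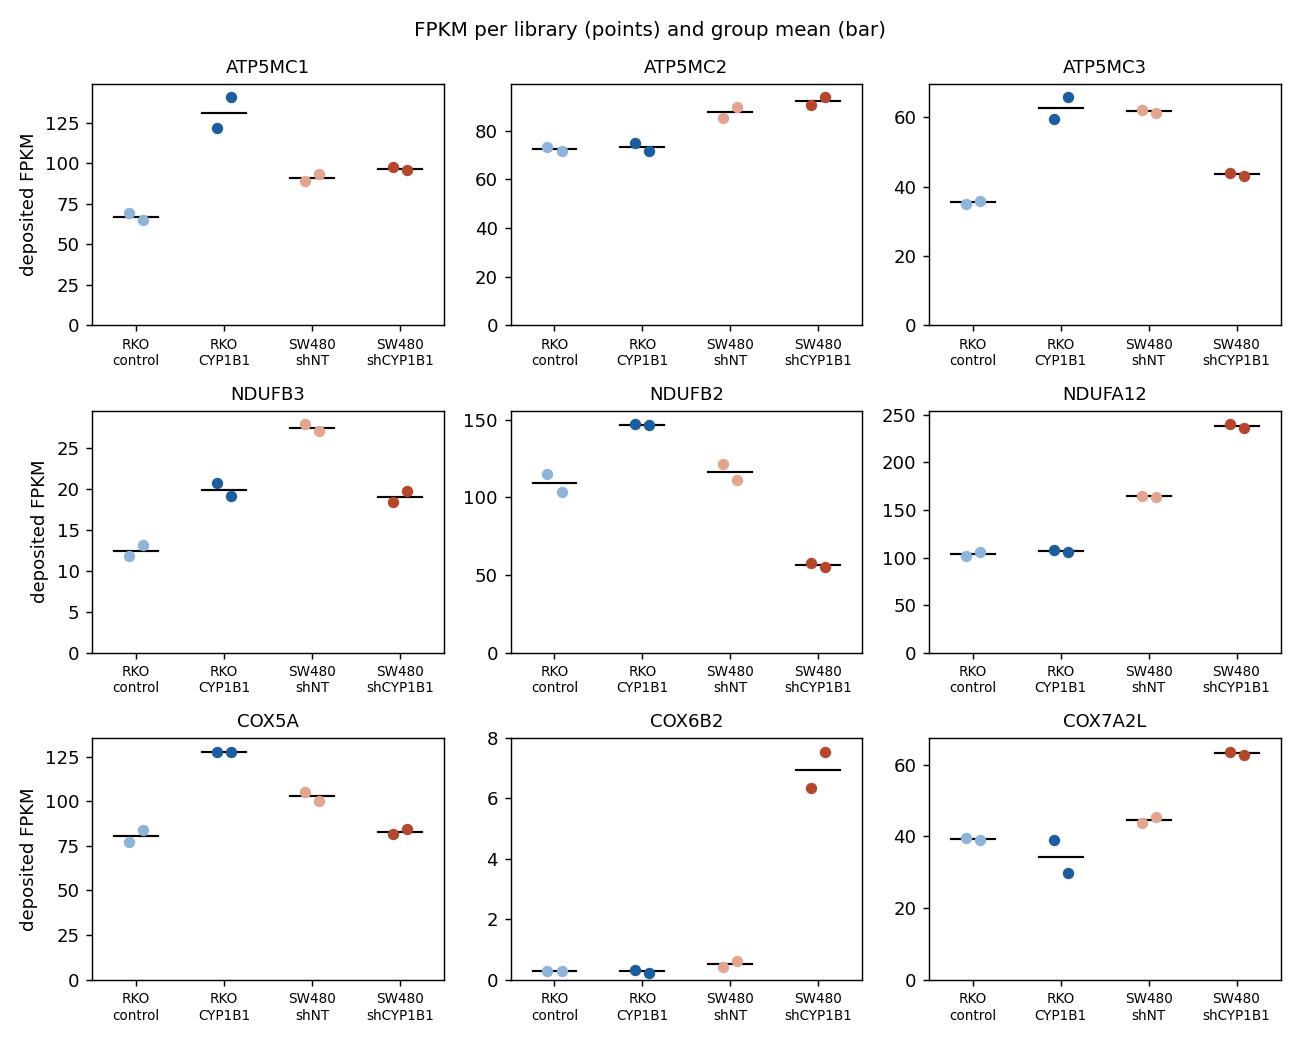
Deposited FPKM of 9 subunit genes in each of the 8 libraries (points, 2 per group) with the group mean (bar), each panel on its own axis from 0. ATP5MC1 and ATP5MC3 lie higher with overexpression in RKO while ATP5MC2 overlaps between the groups, and NDUFB2 lies lower and COX6B2 higher with shCYP1B1 in SW480.

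Of the 38 complex I genes, 17 rose in RKO and 0 fell, with a median of 0.24. With the length trend removed, 10 were higher and 7 lower, with a median of 0.07. Of the 7 nuclear core genes 2 rose, and of the 29 accessory genes other than NDUFA4 and NDUFA4L2, 14 did. NDUFS5, an accessory subunit on the intermembrane side, read 304 and 297 FPKM in the controls and 479 and 487 FPKM with overexpression, and rose by 0.70 (SE 0.07, adjusted p = 7.68e-05). NDUFB3, an accessory subunit of the membrane arm, went from 11.7 and 13.1 to 20.6 and 19.1 FPKM and rose by 0.70 (SE 0.10, adjusted p = 0.000726). NDUFB7, of the same arm, went from 29.0 and 26.9 to 46.6 and 40.3 FPKM and rose by 0.65 (SE 0.10). All 3 genes had no overlap between groups and kept the call with each library left out and with the length trend removed, where NDUFS5 had 0.30.

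The other accessory genes that rose are given to complete the count. NDUFA9, NDUFA8, NDUFS6 and NDUFA2 rose by 0.62, 0.55, 0.55 and 0.50, and NDUFA1, NDUFB2, NDUFA3 and NDUFB11 by 0.45, 0.44, 0.42 and 0.42. NDUFA5 and NDUFB8 rose by 0.33 and 0.29. Of these 10, NDUFB2, NDUFA5 and NDUFB8 lost the call in at least 1 fit with a library left out. NDUFS6, NDUFA2, NDUFA1, NDUFB11, NDUFB2 and NDUFB8 lost it with the length trend removed, at 0.16, 0.18, 0.01, 0.06, 0.03 and 0.04. NDUFA8 and NDUFA3 kept it there at 0.37 and 0.25. NDUFA9, which binds at the junction of both arms, was one of the lower in level, with 5.79 and 5.83 FPKM in the controls and 8.08 and 9.52 FPKM with overexpression, and the groups did not overlap.

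Core subunits carry the flavin and the iron-sulfur clusters along which electrons travel. NDUFS3 read 53.0 and 50.1 FPKM in the controls and 73.9 and 73.5 FPKM with overexpression, and rose by 0.53 (SE 0.08, adjusted p = 0.000903), or 0.27 with the length trend removed. NDUFV1, which binds NADH and the flavin, rose by 0.25 (adjusted p = 0.0393), a call that was lost in 6 of the 8 fits with a library left out and with the length trend removed. Among the core genes that did not pass the test, NDUFS1 had a log2 fold change of -0.10, NDUFS7 of 0.22, NDUFS8 of 0.10 and NDUFV2 of 0.25. NDUFS8 was called lower with the length trend removed, at -0.21. NDUFA12, an accessory subunit, had 0.06 and was called lower there, at -0.31.

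The 4 subunits of succinate dehydrogenase, which also works in the citrate cycle, gave 3 rises in RKO, and 2 with the length trend removed. The flavoprotein SDHA went from 39.7 and 39.8 to 49.0 and 48.4 FPKM and rose by 0.31 (SE 0.07, adjusted p = 0.00527). The membrane anchor SDHD went from 22.2 and 22.2 to 31.5 and 33.6 FPKM and rose by 0.57 (SE 0.08, adjusted p = 0.000528). The other anchor, SDHC, rose by 0.27, a call lost in 3 of the 8 fits with a library left out and with the length trend removed, and the iron-sulfur subunit SDHB had 0.10 (adjusted p = 0.397). SDHA has near-identical pseudogene copies, so its counts are uncertain. SDHB was at 191 and 189 FPKM in the controls, the highest of the 4, so the RNA of the 4 genes did not stand at equal levels.

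Complex III gave 4 rises of 9 genes. With the length trend removed 2 genes were higher, UQCRFS1 and UQCRB (0.31), and UQCRB was not among the 4. UQCRQ rose by 0.34, a call lost in at least 1 fit with a library left out. With the length trend removed UQCRQ had 0.19 and did not pass. UQCRFS1, the Rieske iron-sulfur protein, went from 29.6 and 28.6 to 42.6 and 36.9 FPKM and rose by 0.46 (SE 0.08, adjusted p = 0.00162). The core protein UQCRC1 rose by 0.25, a call lost without control replicate 2 (adjusted p = 0.113) and with the length trend removed, and its partner UQCRC2 had 0.08 and did not pass. UQCRH rose by 0.25, and its intronless copy UQCRHL, with which it could share reads, had 0.14 and did not pass. The UQCRH call was lost in at least 1 fit with a library left out, and its value was -0.08 with the length trend removed. The 2 copies are uncertain for that reason.

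Of 13 tested complex IV genes, 6 rose in RKO and 0 fell, with a median of 0.21. With the length trend removed, 1 was higher and 2 were lower, with a median of 0. COX5A, a structural subunit on the matrix side, went from 77.3 and 83.8 to 128 and 127 FPKM and rose by 0.68 (SE 0.07, adjusted p = 0.000115). COX6B1, on the intermembrane side, went from 185 and 172 to 262 and 269 FPKM and rose by 0.59 (SE 0.07, adjusted p = 0.00024), although it had 0.19 and did not pass with the length trend removed. COX4I1, COX7A2, COX7C and COX8A were the other rises, at 0.26, 0.29, 0.38 and 0.31, and each was lost in at least 1 fit with a library left out and with the length trend removed. NDUFA4, the complex IV subunit counted by its prefix with complex I, went from 32.7 and 33.7 to 44.1 and 44.8 FPKM and rose by 0.44 (SE 0.07, adjusted p = 0.000783), while its paralog NDUFA4L2, known as a target of hypoxia-inducible factor, read 3.39 and 2.44 FPKM in the controls and did not pass (log2 fold change -0.45, adjusted p = 0.395). COX6A1 had 0.15 and COX7A2L -0.18, and neither passed. With the length trend removed COX6A1 and COX7A2L were called lower, at -0.24 and -0.25, and COX8A had -0.10 and did not pass.

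**Figure D4:**
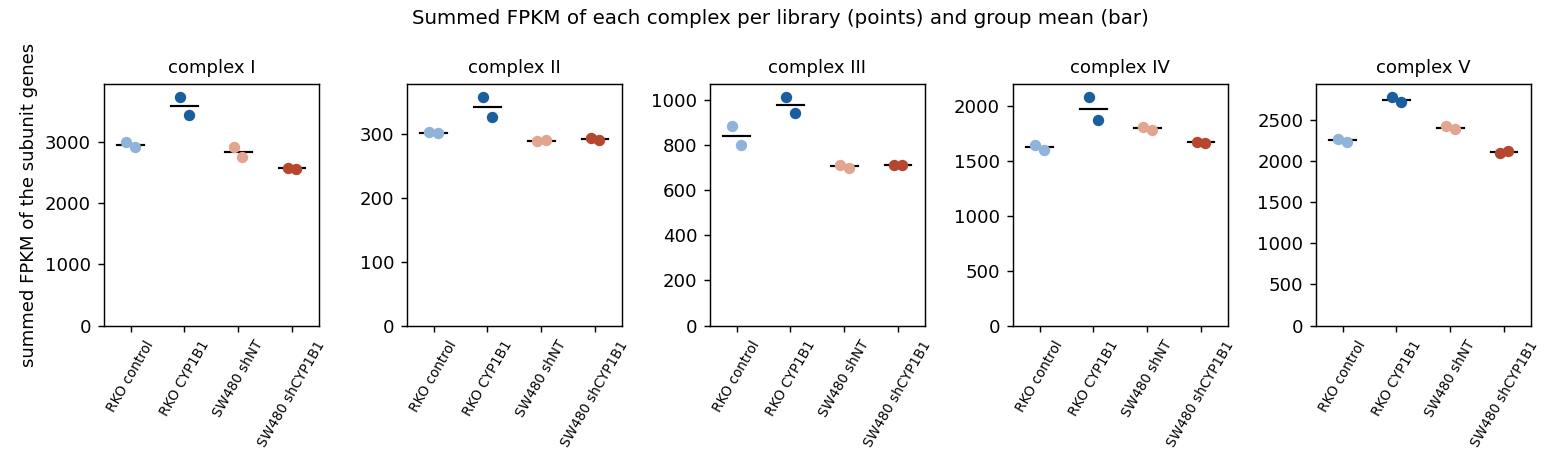
Summed FPKM of the subunit genes of each complex in each of the 8 libraries (points) with the group mean (bar), on axes from 0. In RKO both overexpression libraries lie above both controls in each complex, and in SW480 the shCYP1B1 libraries lie below shNT for complexes I, IV and V.

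Regulators known to act on promoters of this gene class include NRF1, ETS factors such as the GA-binding protein, and YY1. Promoter windows of 300 bases, from 250 before to 50 after the start of the gene, were found for 70 of the 85 genes by gene ID in RefSeq (GRCh38.p14) and searched on both strands for the NRF1 core GCATGCGC, the ETS core CCGGAAG and the YY1 core AAGATGGC. The NRF1 core was in 18.6% of the 70 windows and in 5.18% of the windows of tested genes (3.27% of all 27305), the ETS core in 28.6% and 18.1% (10.7% of all), and the YY1 core in 15.7% and 5.02% (3.03% of all). At least 1 of the 3 was in 34 of the 70 windows (48.6%). Among genes that rose in RKO, the shares were 15.8%, 34.2% and 15.8% of 38 windows, and among those not called 22.6%, 22.6% and 16.1% of 31 (the difference was not tested). A match describes letters only. The 250 bases before the start are shown for 3 genes that rose in RKO and carry a match, for ATP5MC1, which had the largest rise, and for COX6B2, which had the largest change in SW480, with the matched letters in capitals and the rest in lower case. SDHD is on the plus strand at chr11:112086623-112086872, NDUFB4 on the plus strand at chr3:120596086-120596335, COX6B1 on the plus strand at chr19:35648073-35648322, ATP5MC1 on the plus strand at chr17:48892537-48892786 and COX6B2 on the minus strand at chr19:55354720-55354969.
SDHD: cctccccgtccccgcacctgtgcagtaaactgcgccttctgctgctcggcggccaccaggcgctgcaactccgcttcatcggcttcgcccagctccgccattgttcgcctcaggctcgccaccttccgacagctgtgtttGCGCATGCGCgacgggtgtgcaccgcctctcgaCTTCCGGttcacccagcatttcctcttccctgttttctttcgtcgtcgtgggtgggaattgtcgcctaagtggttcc
NDUFB4: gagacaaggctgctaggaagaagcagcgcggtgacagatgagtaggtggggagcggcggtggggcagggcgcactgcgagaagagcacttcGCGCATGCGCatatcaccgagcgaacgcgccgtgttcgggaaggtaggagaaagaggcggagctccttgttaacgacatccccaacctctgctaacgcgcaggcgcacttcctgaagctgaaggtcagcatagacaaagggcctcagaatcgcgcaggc
COX6B1: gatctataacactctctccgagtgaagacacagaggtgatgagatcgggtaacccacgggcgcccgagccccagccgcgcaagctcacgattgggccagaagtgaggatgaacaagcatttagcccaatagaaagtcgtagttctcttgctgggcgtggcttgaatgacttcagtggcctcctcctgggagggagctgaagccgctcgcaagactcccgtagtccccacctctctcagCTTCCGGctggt
ATP5MC1: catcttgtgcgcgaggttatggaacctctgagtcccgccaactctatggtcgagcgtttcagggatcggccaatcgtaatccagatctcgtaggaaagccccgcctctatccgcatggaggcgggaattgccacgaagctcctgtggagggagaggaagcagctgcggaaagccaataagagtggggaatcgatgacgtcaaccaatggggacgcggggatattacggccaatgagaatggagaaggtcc
COX6B2: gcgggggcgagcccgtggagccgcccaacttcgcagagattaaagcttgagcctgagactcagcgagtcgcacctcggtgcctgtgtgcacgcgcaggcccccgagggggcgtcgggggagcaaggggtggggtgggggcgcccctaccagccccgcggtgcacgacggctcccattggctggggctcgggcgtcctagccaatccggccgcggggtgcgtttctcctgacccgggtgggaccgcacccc
In SDHD and NDUFB4 the capitals of 10 letters are 2 overlapping NRF1 cores, 1 on each strand, and SDHD has an ETS core 77 bases before the start. COX6B1 has an ETS core 12 bases before the start, and ATP5MC1 and COX6B2 hold none of the 3 strings in this window. NDUFB4, an accessory subunit of complex I, went from 32.5 and 32.3 to 48.1 and 49.0 FPKM in RKO and rose by 0.60 (SE 0.07, adjusted p = 0.000311), with no overlap between the groups.

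Knockdown of CYP1B1 in SW480 gave a different picture. Of the 82 tested genes, 5 rose and 21 fell, where 25.3% of all tested genes rose and 25.3% fell. The share that fell, 25.6%, was close to that of genes in general, and the share that rose, 6.1%, was lower. The median log2 fold change was -0.07. The subunit genes summed to 8140 and 7912 FPKM with shNT and to 7358 and 7340 FPKM with shCYP1B1, and their share of counts was 0.882% ± 0.0139 and 0.810% ± 0.000398 (SD, n = 2). The 2 pairs did not overlap. Of the 8 tested epithelial marker genes, KRT8 and KRT18 rose and EPCAM, KRT19, VIL1 and CDX2 fell with shCYP1B1 (median log2 fold change -0.82), and their part in the result was not tested. EPCAM was at 84.0 and 84.7 FPKM with shNT and at 14.1 and 14.6 FPKM with shCYP1B1, and LGR5 was at or near 0 in all libraries. The count of falls was sensitive to single libraries, with 10 without shNT replicate 1 and 13 without either shCYP1B1 library, and 10 of the 21 falls and 5 of the 5 rises were kept with each library left out. Without either RKO overexpression library, which changes the shared estimate of the spread, 12 genes rose, and with SW480 fitted on its own 13 did. With the length trend removed, 24 fell and 5 rose.

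By complex, 8 genes of complex I fell and 1 rose (median -0.14), 1 of complex II fell and 1 rose, and 2 of complex III fell and 1 rose. In complex IV 3 fell and 2 rose, and in complex V 7 fell and 0 rose. For complexes I to V the shares that fell were 21.1%, 25%, 22.2%, 23.1% and 38.9%, beside 25.3% of all tested genes. The shares that rose were 2.63%, 25%, 11.1%, 15.4% and 0%, beside 25.3%. The largest fall was in complex I. NDUFB2, an accessory subunit of the membrane arm (chromosome 7, 140690777 to 140722790, plus strand), read 121 and 111 FPKM with shNT and 57.9 and 54.8 FPKM with shCYP1B1, and fell by 1.00 on the log2 scale (SE 0.09, adjusted p = 7.40e-06). It overlaps the antisense gene NDUFB2-AS1, and since the use of strand in counting is not stated, reads of the 2 cannot be told apart. NDUFS1, the largest core subunit, read 12.8 and 13.5 FPKM and then 9.10 and 8.97 FPKM, and fell by 0.50 (SE 0.07, adjusted p = 0.000152). NDUFS6, an accessory subunit that binds zinc, went from 213 and 194 to 144 and 139 FPKM and fell by 0.49, and NDUFB3 from 27.8 and 27.0 to 18.3 and 19.7 FPKM and fell by 0.48. In these 4 genes the groups did not overlap and the call was kept with each library left out.

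NDUFC2 went from 6.12 and 5.85 to 4.22 and 3.55 FPKM and fell by 0.58 (SE 0.17, adjusted p = 0.0153), but the call was lost in 3 of the 8 fits with a library left out, and the gene overlaps the read-through gene NDUFC2-KCTD14. SDHC fell by 0.44 (SE 0.08, adjusted p = 0.000872), from 50.6 and 51.5 to 38.1 and 35.1 FPKM. In complex V, ATP5MC3 went from 62.3 and 61.2 to 44.0 and 43.2 FPKM and fell by 0.46 (SE 0.07, adjusted p = 0.000286), and ATP5F1B from 588 and 581 to 465 and 472 FPKM, falling by 0.27 (SE 0.06). ATP5MC1 had a log2 fold change of 0.13 and ATP5MC2 of 0.12, and neither passed, so within the c subunit family ATP5MC3 alone was called. Its share of the family's FPKM was 25.7% ± 0.924 with shNT and 18.8% ± 0.277 with shCYP1B1 (SD, n = 2).

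The 5 rises in SW480 were 2 genes of complex IV and 1 each of complexes I, II and III. COX6B2 (chromosome 19, 55349306 to 55354814, minus strand), the isoform of COX6B1 known from testis, read 0.423 and 0.620 FPKM with shNT and 6.35 and 7.55 FPKM with shCYP1B1, on 31 and 45 counts against 451 and 546. It rose by 3.78 on the log2 scale (SE 0.29, adjusted p = 1.95e-06), a 13.7-fold change. Even so it made up 1.90% ± 0.238 of the summed FPKM of COX6B1 and COX6B2 with shCYP1B1, beside 0.137% ± 0.0347 with shNT (SD, n = 2). The 2 testis marker genes summed to 0 and 0.0710 FPKM with shNT and to between 0.218 and 1.15 FPKM with shCYP1B1, and their part in the result was not tested. COX6B1 read 376 and 383 FPKM and then 361 and 358 FPKM and did not pass (log2 fold change -0.04).

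NDUFA12 (chromosome 12, 94897055 to 95003770, minus strand) went from 165 and 164 to 240 and 236 FPKM and rose by 0.58 (SE 0.07, adjusted p = 3.37e-05), against the direction of the other complex I genes called. COX7A2L, which ties complex III to complex IV, went from 43.6 and 45.5 to 63.6 and 62.8 FPKM and rose by 0.55 (SE 0.10, adjusted p = 0.00102). Its relative COX7A2, the usual subunit, read 33.4 and 34.4 FPKM and then 33.6 and 34.5 FPKM and had a log2 fold change of 0.05. COX7A2L thus went from 56.8% ± 0.240 to 65.0% ± 0.652 of the summed FPKM of the COX7A family (SD, n = 2). UQCRC2 rose by 0.37 (SE 0.07, adjusted p = 0.00138), from 46.1 and 45.0 to 56.1 and 57.9 FPKM, and SDHA by 0.30 (SE 0.07, adjusted p = 0.00266), from 60.6 and 59.0 to 73.9 and 69.0 FPKM. All 5 calls were kept with each library left out and with the length trend removed.

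Setting the lines side by side, 14 genes rose with overexpression in RKO and fell with knockdown in SW480, where 3.45% of all tested genes did. Of all 1959 tested genes that rose in RKO, 489 also fell in SW480, beside 14 of the 44 subunit genes that rose. The joint share of the subunit genes thus carries their higher share of rises in RKO. Only 1 gene rose in both (SDHA, where 4.49% of all tested genes did). Another 29 rose in RKO and were not called in SW480, 7 fell and 4 rose in SW480 alone, and 27 were called in neither. The 14 were 6 genes of complex V (ATP5F1A, ATP5F1B, ATP5F1E, ATP5MC3, ATP5MF and ATP5PB), 4 of complex I (NDUFB2, NDUFB3, NDUFB7 and NDUFS6), COX5A and COX8A of complex IV, SDHC and UQCRQ. With each library left out in turn, 4 of the 14 kept both calls (ATP5F1B, ATP5MC3, NDUFB3 and NDUFS6), and 6 kept both with the length trend removed. ATP5F1B, ATP5MC3 and NDUFB3 kept both calls in all of these fits. The 2 line comparisons share no control library, but they share the estimate of the spread.

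**Figure D5:**
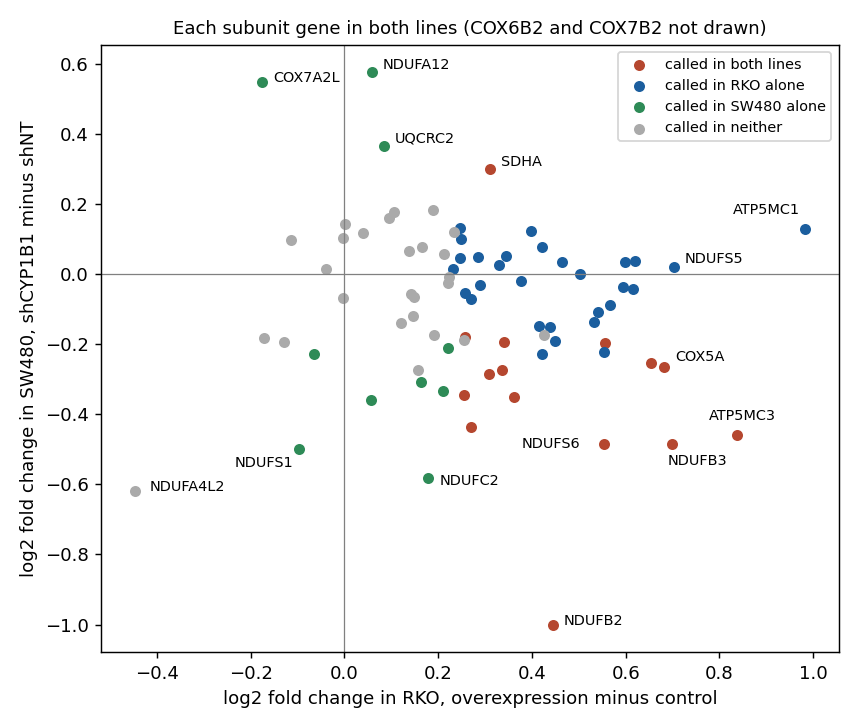
Log2 fold change of each tested subunit gene in SW480 (vertical, shCYP1B1 minus shNT) against RKO (horizontal, overexpression minus control), coloured by the lines in which it was called, without COX6B2, which is off scale, and COX7B2, which had 0 counts in RKO. The lower right part holds the 14 genes that rose in RKO and fell in SW480, and SDHA lies in the upper right.

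Libraries of RKO overexpression and SW480 shNT were taken as CYP1B1-high, and those of RKO control and shCYP1B1 as CYP1B1-low. Over both lines, with cell line as a covariate, 13 of 82 genes were higher and 0 lower in the CYP1B1-high libraries. Of all tested genes, 3.86% were higher and 4.2% lower. DESeq2 called 23 and 2, and at an unadjusted p under 0.05 there were 31 and 2, in each case without a share of all tested genes to compare. ATP5MC3 gave 0.65 (SE 0.09, adjusted p = 0.0115), NDUFB3 0.59 (SE 0.10, adjusted p = 0.0166), COX5A 0.47 (SE 0.10, adjusted p = 0.0278) and ATP5F1B 0.30 (SE 0.06, adjusted p = 0.0215). The count did not hold with single libraries left out: it was 0 without shNT replicate 1 or shCYP1B1 replicate 2, 1 without shCYP1B1 replicate 1, 2 without shNT replicate 2, 4 without RKO control replicate 2, 5 without RKO control replicate 1 and 8 without overexpression replicate 2, and without overexpression replicate 1, 2 genes were lower.

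CYP1B1 stood at 85.0 and 100.7 FPKM in the CYP1B1-high libraries of RKO, but at 0.274 and 0.421 FPKM in those of SW480. Cell line and the size of the CYP1B1 change therefore cannot be told apart here. Whether the effect of a high against a low CYP1B1 level differed between the lines was tested directly. It was higher in RKO for 28 of the 82 genes and lower for 3, where 21% higher and 21.6% lower of all tested genes were called so. A gene that rose with shCYP1B1 counts toward higher in RKO even with no call in RKO, as did COX6B2 and NDUFA12. The clearest were ATP5MC1 (1.11, SE 0.13, adjusted p = 5.72e-05), COX6B2 (3.73, SE 0.48, adjusted p = 0.000108), NDUFS5 (0.72, SE 0.09, adjusted p = 0.00011), NDUFA12 (0.63, SE 0.10, adjusted p = 0.000329), SDHA (0.61, SE 0.09, adjusted p = 0.000352) and NDUFB4 (0.63, SE 0.11, adjusted p = 0.000626). Those lower were NDUFS1 (-0.59), NDUFB2 (-0.56) and ATP5MG (-0.30), the last named after its value was seen. The counts moved with single libraries, to 47 higher without overexpression replicate 2, 17 higher without shNT replicate 2 and 7 lower without overexpression replicate 1, and with the length trend removed 12 were higher and 16 lower.

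Other genes of the system gave mixed counts. Of 50 tested assembly factors, which build the complexes, 8 rose (16%) and 2 fell (4%) in RKO, beside 13.8% each way for all tested genes, with a median of 0.09. In SW480, 9 rose (18%) and 15 fell (30%), beside 25.3% each way. NDUFAF8, an assembly factor of complex I, read 24.9 and 21.7 FPKM in RKO control and 32.1 and 38.4 FPKM with overexpression, and 43.4 and 40.3 FPKM with shNT and 19.2 and 19.3 FPKM with shCYP1B1, rising by 0.61 in RKO and falling by 1.08 in SW480. The RKO call was lost without control replicate 2 (adjusted p = 0.0858). COA3, a factor for complex IV, rose by 0.59 and fell by 0.66, and TMEM70, a factor for complex V, rose by 0.55 and fell by 0.40. ACAD9 (-0.98) was the second largest fall among the assembly factors in SW480, and COX10 (0.93) and SDHAF1 (0.75) were its largest rises.

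Of 12 regulators of mitochondrial gene expression, 3 rose and 1 fell in RKO (25% and 8.33%, beside 13.8% each way for all tested genes), and 5 rose and 5 fell in SW480 (41.7% each, beside 25.3%). TFAM, which packages and transcribes mitochondrial DNA, read 15.6 and 14.4 FPKM with shNT and 6.29 and 7.22 FPKM with shCYP1B1, and fell by 1.11 (SE 0.10, adjusted p = 4.77e-06). The mitochondrial RNA polymerase POLRMT rose by 0.62 there, TFB1M by 1.10, and the transcription factor TFB2M by 0.56. The coactivator PPARGC1A rose by 1.47 from a low level, 0.361 and 0.508 to 1.22 and 1.12 FPKM. In RKO, POLRMT rose by 0.40, ESRRA by 0.32 and TFB2M by 0.38, and GABPB1, a subunit of the GA-binding protein, fell by 0.34. The ESRRA, TFB2M and GABPB1 calls in RKO were each lost in at least 1 fit with a library left out. ESRRA and GABPB1 were also called in SW480, with values not given here. Of the 5 regulators that fell in SW480, TFAM alone is given with its value. Of 13 citrate cycle genes, 1 rose and 0 fell in RKO (7.69% and 0%) and 2 rose and 4 fell in SW480 (15.4% and 30.8%), beside the 13.8% and 25.3% each way given above for all tested genes. The falls included DLD, a shared subunit of dehydrogenase complexes, which fell by 0.83.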

How the data were processed

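Expression was measured by RNA-seq in 8 libraries, 2 in each of 4 groups, which the sample titles give. Libraries were prepared with a stranded mRNA kit from 1 µg of TRIzol-extracted RNA, per the labels' protocols. The authors deposited raw read counts per gene, and FPKM values for the same genes and libraries. Each deposited FPKM is the count over gene length and library total. Per the submitters' processing notes the genome build was GRCh38.p13. Not given in the sources used here are the aligner, counting tool, annotation and use of strand, so reads of overlapping or antisense genes could not be separated. The time of virus treatment was not used, because its unit is unclear.

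Tests started from the deposited counts. Genes were kept by filterByExpr (minimum count 10, minimum total 15), which left 14157 of 16829. Libraries were scaled with TMM, and quasi-likelihood models with 1 coefficient per group (4 residual degrees of freedom) were fitted to the 8 libraries together with edgeR 4.0.16 (R 4.3.3). P-values were adjusted by Benjamini-Hochberg across the tested genes, with a threshold of 0.05, and the SE is the log2 fold change divided by the square root of F. No permutation test was made, since 2 libraries against 2 allow no p under 0.333. The steps were tested on simulated data. FPKM values served for levels, sums and shares of a gene family, without a test.

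Genes named were the largest changes each way in each line, the smallest p for the difference between the lines, the largest differences between the control groups, and fixed isoform families, core subunits and regulators. One gene that this rule selects is not reported here, although counts include it. Other genes are named only where the text says so or to complete a count. The members and lists were chosen with earlier results of these data known. The samples were not treated as paired by replicate number. The correlation of deviations between same-numbered samples was -0.01 in each line. With 2 libraries a group this shows no shared shift but cannot settle whether the samples are paired. Alternatives were other scaling and filters, DESeq2 1.42.0, limma 3.58.1 on log2 FPKM, each line on its own, a replicate block, leaving out each library, and a length offset chosen after seeing the data.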

Additional observations from a re-analysis of the deposited data

Results flagged for a closer look

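For 20 of the named genes the CYP1B1-high minus CYP1B1-low effect differed between RKO and SW480 in edgeR's test of that difference, in log2 units, positive where the effect was higher in RKO. In complex V, the difference was 1.11 for ATP5MC1, 0.38 for ATP5MC3 and 0.36 for ATP5F1E. Complex IV gave 3.73 for COX6B2, 0.56 for COX6B1, 0.42 for COX5A and 0.33 for COX7A2, and NDUFA4 gave 0.29. Complex III gave 0.50 for UQCRFS1, 0.45 for UQCRC2 and 0.35 for UQCRC1. Complex II gave 0.61 for SDHA and 0.48 for SDHD. Complex I gave 0.72 for NDUFS5, 0.63 for NDUFA12, 0.63 for NDUFB4, 0.40 for NDUFB7 and 0.40 for NDUFS3, and, lower in RKO, -0.59 for NDUFS1 and -0.56 for NDUFB2. In NDUFB2, ATP5MC3, COX5A, NDUFB7 and ATP5F1E the gene rose in RKO and fell in SW480, so the effects had the same sign and differed in size. COX6B2, NDUFA12 and UQCRC2 were not called in RKO and rose with shCYP1B1, so their positive values rest mainly on SW480.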

How the results depend on the processing

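With each library left out in turn, the count of subunit genes higher in RKO ran from 28 to 58 and lower from 0 to 4, and in SW480 higher from 5 to 12 and lower from 10 to 29. For the difference between the lines it ran from 17 to 47 higher and 2 to 7 lower, and over both lines from 0 to 11 higher and 0 to 2 lower. The median in SW480 ran from -0.094 to -0.048. With SW480 fitted on its own, 13 genes rose. DESeq2 gave 23 higher and 2 lower over both lines. The limma fits on log2 FPKM gave 6, 6 and 8 lower for the difference between the lines (pseudocount 1, pseudocount 0.1, and pseudocount 1 with a filter of 1 FPKM in 2 libraries), with SW480 medians of -0.11, -0.11 and -0.11, and scaling by library size alone also gave -0.11. With the length offset, chosen after seeing the data, RKO had 21 higher and 11 lower with a median of 0.057, the difference between the lines 12 and 16, and both lines together 8 and 2, and the sign changed in RKO for 23 of 82 genes, 5 of them among the 44 that rose. Among the genes selected by the rule above, those called in RKO in the main fit or with the offset were checked for sign. In these the sign changed: ATP5IF1 (-0.37), COX6A1 (-0.24), COX8A (-0.10), NDUFA12 (-0.31) and NDUFS8 (-0.21). Genes called in neither fit are not listed, even where their sign changed. The cause was not tested. With the replicate number as a block, RKO kept counts of 44 and 0 and SW480 of 5 and 21, and over both lines 4 were higher. Whether the numbers pair the samples is not known. Depth limits genes such as COX7B2, COX7A1 and COX8C, and 2 libraries a group limit precision throughout.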
